A study of Homo sapiens with 6 samples.

Results

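The members described here are the intervals of named antisense long noncoding RNAs in a PRO-seq count table of T47D cells. They were taken as the intervals whose gene name ends in -AS and a number, with 1 name left out by the rule, and with 10 or more counts in at least 1 library. Of the 20333 intervals in the table, 562 carried such a name and 554 met the count minimum, while 8 did not. A gene bearing the same name without the -AS suffix, called the sense gene below, was present for 470 of the 554 members (463 different genes) and not listed for the other 84.

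T47D is a luminal breast cancer line, labelled positive for estrogen receptor and negative for HER2, and it was grown in medium complete in growth factors. There were 3 arms, each treated for 5 h and each with 2 libraries. DMSO was the solvent control, GDC0068 is a catalytic inhibitor of the kinase AKT and was used at 500 nM, and the arm labelled Degrader received 100 nM of INY-05-040, which removes AKT protein. The doses differ because, per the series' description, they were chosen to suppress downstream signalling to a like degree. The 2 libraries of an arm come from 2 independent experiments of 1 cell line. The main tests below have no replicate term and so measure the spread between those experiments. Tests with the replicate number as a block take out what libraries of the same number share.

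PRO-seq maps RNA polymerases that are engaged on DNA by letting them add a labelled nucleotide, so a count reflects transcription at that place and not the amount of finished RNA. Many human promoters fire in both directions, and a large share of annotated antisense RNAs begin beside the start of a protein-coding gene and run away from it, while others begin inside the gene or at its far end and run against it. Transcription in the 2 directions from 1 promoter region can be controlled together or apart, and a few antisense RNAs are known to act on their neighbour or elsewhere in the cell, as CDKN2B-AS1 (ANRIL) does at the CDKN2A and CDKN2B locus.

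The promoter windows of the loci on which the results turn are given here, as 300 bases that run from 250 before to 50 after the RefSeq start, on GRCh38.p14, read 5′ to 3′ on the strand of each RNA. Capitals mark matches on either strand to the 8 motifs named further on, and longer runs of capitals are matches that touch or overlap. ZBED5-AS1 (chr11:10857967-10858266, plus strand) and ZBED5 (chr11:10858004-10858303, minus strand) share 263 bases of window and are a pair in which both directions rose. URB1-AS1 (chr21:32392883-32393182, plus strand) and URB1 (chr21:32392963-32393262, minus strand) share 220 bases and are a pair in which the ratio of the 2 directions changed.
ZBED5-AS1: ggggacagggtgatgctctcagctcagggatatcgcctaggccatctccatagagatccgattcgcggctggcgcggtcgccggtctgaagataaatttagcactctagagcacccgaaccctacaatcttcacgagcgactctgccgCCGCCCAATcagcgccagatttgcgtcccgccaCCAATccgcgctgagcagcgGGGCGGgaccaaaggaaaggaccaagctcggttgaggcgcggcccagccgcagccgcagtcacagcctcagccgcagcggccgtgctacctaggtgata
ZBED5: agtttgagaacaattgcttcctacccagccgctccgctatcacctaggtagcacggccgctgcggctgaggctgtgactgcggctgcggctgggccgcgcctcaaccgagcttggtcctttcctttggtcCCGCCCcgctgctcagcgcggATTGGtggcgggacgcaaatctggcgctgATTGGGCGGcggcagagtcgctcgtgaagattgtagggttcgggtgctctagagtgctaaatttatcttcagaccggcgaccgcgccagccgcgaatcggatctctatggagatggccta
URB1-AS1: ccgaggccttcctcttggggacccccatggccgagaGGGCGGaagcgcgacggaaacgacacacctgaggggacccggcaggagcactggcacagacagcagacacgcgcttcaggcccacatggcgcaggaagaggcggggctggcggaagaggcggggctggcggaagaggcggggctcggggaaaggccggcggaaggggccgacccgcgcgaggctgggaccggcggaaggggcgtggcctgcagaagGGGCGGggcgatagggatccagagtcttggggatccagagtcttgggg
URB1: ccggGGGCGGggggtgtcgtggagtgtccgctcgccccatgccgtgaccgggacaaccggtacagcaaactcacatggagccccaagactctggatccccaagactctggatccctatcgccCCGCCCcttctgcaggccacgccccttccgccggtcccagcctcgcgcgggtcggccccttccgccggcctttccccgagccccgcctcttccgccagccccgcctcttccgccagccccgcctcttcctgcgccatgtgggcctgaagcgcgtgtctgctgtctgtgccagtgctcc

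The windows of ARRDC3-AS1 (chr5:91380097-91380396, plus strand) and ARRDC3 (chr5:91383268-91383567, minus strand) lie apart, since the antisense RNA begins inside the gene; the ratio of antisense to sense counts at this pair fell in both drug arms. SIAH2-AS1 (chr3:150761687-150761986, plus strand) and PSMG3-AS1 (chr7:1569823-1570122, plus strand) are shown as members that rose while their sense gene was not called or fell.
ARRDC3-AS1: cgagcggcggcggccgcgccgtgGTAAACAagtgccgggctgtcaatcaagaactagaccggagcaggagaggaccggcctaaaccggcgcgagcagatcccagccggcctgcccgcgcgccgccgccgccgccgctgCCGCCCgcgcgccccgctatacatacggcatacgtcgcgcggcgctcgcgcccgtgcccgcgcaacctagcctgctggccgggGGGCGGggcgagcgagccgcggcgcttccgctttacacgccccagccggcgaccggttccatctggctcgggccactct
ARRDC3: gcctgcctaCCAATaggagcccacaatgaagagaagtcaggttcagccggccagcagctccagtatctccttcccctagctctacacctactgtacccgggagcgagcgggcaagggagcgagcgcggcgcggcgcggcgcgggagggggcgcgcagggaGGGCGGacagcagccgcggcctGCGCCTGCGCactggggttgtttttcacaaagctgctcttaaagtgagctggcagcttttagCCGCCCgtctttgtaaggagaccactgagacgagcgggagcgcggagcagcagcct
SIAH2-AS1: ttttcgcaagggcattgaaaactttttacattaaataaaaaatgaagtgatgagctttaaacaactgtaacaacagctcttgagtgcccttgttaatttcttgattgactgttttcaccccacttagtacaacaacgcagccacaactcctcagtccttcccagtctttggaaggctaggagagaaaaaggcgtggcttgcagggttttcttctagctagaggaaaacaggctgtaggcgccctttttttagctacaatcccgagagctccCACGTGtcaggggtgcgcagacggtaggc
PSMG3-AS1: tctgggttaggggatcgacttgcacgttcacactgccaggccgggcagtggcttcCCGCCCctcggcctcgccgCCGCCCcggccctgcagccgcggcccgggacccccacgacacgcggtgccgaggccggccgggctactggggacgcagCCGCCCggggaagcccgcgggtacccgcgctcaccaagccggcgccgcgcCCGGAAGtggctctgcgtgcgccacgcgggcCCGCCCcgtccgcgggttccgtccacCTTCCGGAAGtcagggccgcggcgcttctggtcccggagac

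Library totals ranged from 25371819 to 32192576 counts, and the median member had between 375 and 452.5 counts per library. Levels are given as CPM, the counts scaled to a library total of 1000000, with TMM factors between 0.997 and 1.003, and levels of different genes are compared only per kilobase of interval. ESR1, PGR, GATA3, FOXA1, XBP1 and the keratins KRT8, KRT18 and KRT19, which define a luminal line, each had at least 223 CPM in every library, while TFF1 had 4.08 to 5.84 CPM. Of the basal, immune and endothelial markers looked for, only ZEB1 is listed in the table, at 5.23 to 5.99 CPM. AKT1, which encodes one of the drug targets, had 229 and 235 CPM in DMSO, 200.4 and 197 CPM in GDC0068, and 190.0 and 187 CPM in the degrader; since both drugs act on the protein, its transcription does not check the labels.

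By their coordinates, most members with a listed sense gene began near the start of that gene, on the other strand. In 289 of the 470 pairs (61.5%) the 2 start sites, on opposite strands, lay within 1000 bp of each other, and the median distance in these pairs was 213 bp. The number was 240 with a limit of 500 bp and 310 with a limit of 2000 bp. The antisense start was upstream of the sense start in 211 of the 289 pairs, which gives divergent intervals with no overlap, and inside the sense gene in 78. In 64 pairs the antisense interval ran over the far end of the sense gene, in 37 it lay inside the sense gene, in 18 it began further inside the sense gene and ran out over its start, in 6 it contained the sense gene, and in 56 the intervals did not overlap. All 470 pairs were on opposite strands.

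**Figure D1:**
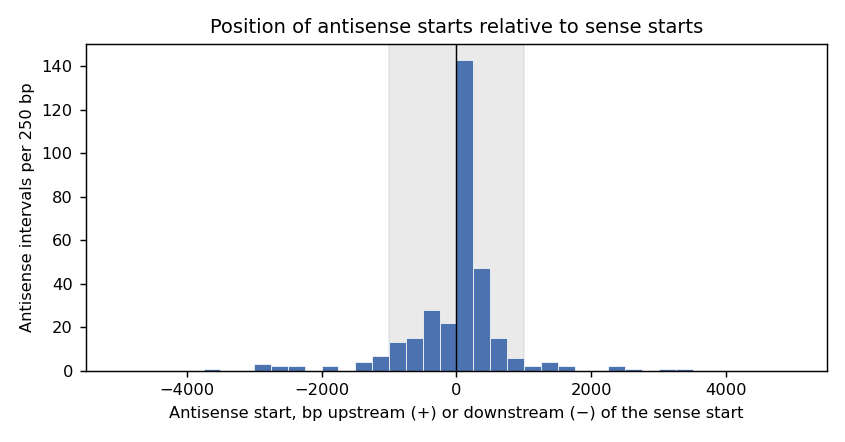
Distance from the sense start to the antisense start in base pairs (x axis, positive where the antisense RNA starts upstream of the sense gene) against the number of pairs in bins of 250 bp (y axis); grey marks the 1000 bp limit, and pairs with more distant starts fall outside the axis. The starts of 188 pairs lie within 300 bp of each other, and most of the 289 pairs of the shared start class lie on the upstream side.

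Members spanned a wide range of transcription. Their mean level over the 6 libraries ran from 0.188 to 235 CPM with a median of 14.1 CPM, and 17 members were at 100 CPM or more while 18 were under 1 CPM. Per kilobase, the median member had 1.50 CPM, against 1.53 for the sense genes and 1.67 for all intervals. In 244 of the 470 pairs the antisense interval had the higher level per kilobase. Across the 289 pairs of the shared start class, log2 levels per kilobase of the 2 sides had a Pearson correlation of 0.343, given as a description over pairs that share libraries and base composition.

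The highest levels per kilobase were those of DSCAM-AS1, an RNA known from estrogen receptor positive breast cancer, with 50.7 CPM per kb, then HOXC-AS3 with 48.1, ASH1L-AS1 with 42.6, YTHDF3-AS1 with 39.2 and GATA3-AS1 with 38.4. GATA3-AS1 starts 323 bp from GATA3, the luminal lineage factor, which itself had 66.8 CPM per kb. DSCAM-AS1 had 66.0 and 67.2 CPM in DMSO, 56.9 and 75.5 CPM in GDC0068, and 60.0 and 66.8 CPM in the degrader. GATA3-AS1 had 157 and 142 CPM in DMSO, 156 and 151 CPM in GDC0068, and 149.8 and 146 CPM in the degrader. The arms of DSCAM-AS1 overlapped, as did those of GATA3-AS1 between DMSO and each drug, while both degrader libraries of GATA3-AS1 lay below both GDC0068 libraries. Neither RNA passed the test in any comparison (smallest edgeR adjusted p 0.689, for GATA3-AS1 between the degrader and GDC0068).

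How far the counts separate the strands is not stated in the sources used here. Of 38 antisense intervals that lie wholly within their sense gene, 6 had more counts than the whole sense interval. Counting every read over each whole interval without regard to strand could not give this. The counting rule is not known, so the use of strand is not settled by these 6. ST8SIA6-AS1 was the largest of them, with 40658 counts over the 6 libraries against 18887 for ST8SIA6, a sialyltransferase gene. On their own strand, 31 members overlapped another interval of the table, and for these the counting may split or share reads.

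As a class the members held a slightly larger share of counts in both drug arms. The share was 1.32% and 1.31% of all counts in the DMSO libraries, 1.38% and 1.37% in GDC0068, and 1.36% and 1.37% in the degrader, so that neither drug arm overlapped DMSO. The shared start members held 0.568% and 0.562% of counts in DMSO, 0.619% and 0.599% in GDC0068, and 0.595% and 0.598% in the degrader. The other members held 0.752% and 0.748%, then 0.764% and 0.768%, then 0.765% and 0.770% in the same order. Without the 10 members with the most counts, the shares were 1.16% and 1.15% in DMSO and between 1.19% and 1.22% in the drug-treated libraries. With 2 libraries against 2, no exact test of a share can give a two-sided p under 0.333. An interval over a ribosomal RNA gene, FP236383.3, took 1.29% to 2.58% of the library totals. With it left out, the members' shares were 1.35% and 1.34% in DMSO, 1.42% and 1.40% in GDC0068, and 1.38% and 1.39% in the degrader.

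**Figure D2:**
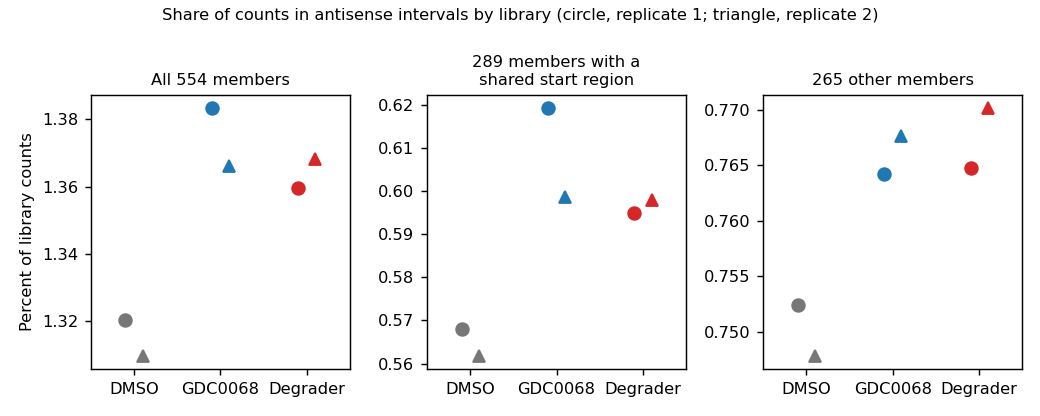
Percent of library counts (y axis) in each of the 6 libraries (x axis, by arm), for all 554 members, the 289 that share a start region with their sense gene and the 265 others; circles are replicate 1 and triangles replicate 2. The axes do not start at 0 and differ between panels, and in each panel the 4 drug-treated libraries lie above the 2 DMSO libraries.

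The median log2 fold change of the 553 members that could be tested was 0.048 in the degrader and 0.071 in GDC0068 against DMSO, where the medians over all 19902 intervals tested were -0.0014 and 0.0099. Values above 0 were found for 326 members (59.0%) in the degrader and 374 (67.6%) in GDC0068. In the shared start class the antisense side had a median of 0.113 in GDC0068, with 75.4% of 289 members above 0, while the sense side had a median of 0.0044 with 51.6% above 0. With 1 library left out, the sense median ranged from -0.023 to 0.025. In the degrader the same medians were 0.063 and 0.0091. Members in other arrangements, or with no sense gene in the table, had medians of 0.028 in the degrader (0.016 without DMSO replicate 2) and 0.027 in GDC0068 (0.046 without DMSO replicate 1). With any 1 library left out, the median of the shared start members stayed between 0.087 (without GDC0068 replicate 1) and 0.146 (without GDC0068 replicate 2) in GDC0068 and between 0.055 and 0.076 in the degrader.

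A small upward median was also found among other noncoding intervals. The 359 intervals with LINC names had medians of 0.077 in the degrader and 0.070 in GDC0068, and the 4128 named after genomic clones had 0.036 and 0.059. The LINC median in the degrader was 0.051 without Degrader replicate 1. Among 6110 intervals of any other name whose mean level lay between the members' quartiles (6.55 and 30.6 CPM), the medians were -0.0062 (-0.0098 to -0.0030 with 1 library left out) and 0.038 (0.019 without GDC0068 replicate 1, 0.044 without GDC0068 replicate 2). The 2 drug comparisons use the same DMSO libraries, so a shift in DMSO would appear in both. Whether length, level or the class of RNA goes with the shift was not tested.

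**Figure D3:**
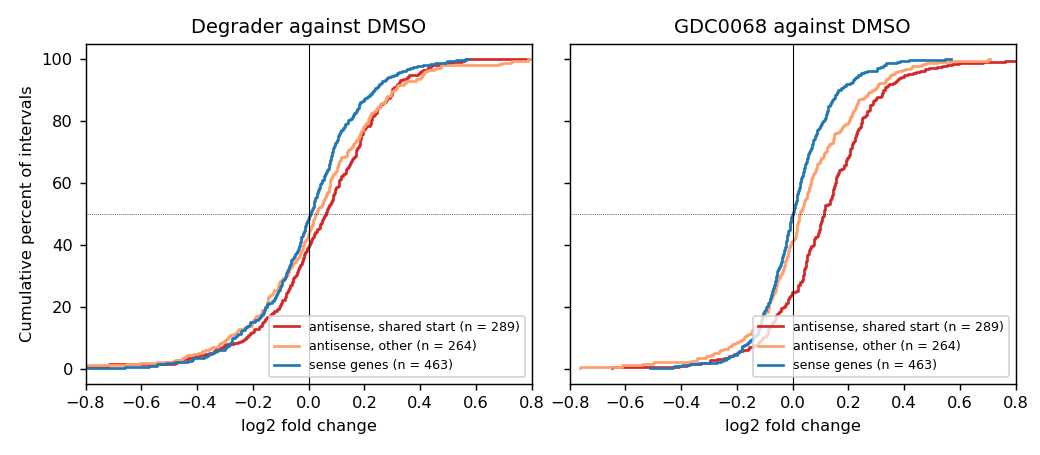
Cumulative percent of intervals (y axis) by log2 fold change against DMSO (x axis, cropped at both ends) in the degrader (left) and GDC0068 (right), for the 289 shared start members, the 264 other members tested and the 463 sense genes. The curve of the shared start members lies to the right of that of the sense genes near the middle of both panels, with a median of 0.113 in GDC0068 and 0.063 in the degrader.

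Of the 553 members tested, 73 changed in the degrader against DMSO at an adjusted p under 0.05 in edgeR's quasi-likelihood test, 50 of them higher and 23 lower. This is 13.2% of the members, beside 15.3% of all intervals tested (7.39% higher and 7.88% lower). The changes were small, with a median log2 fold change of 0.32 among those that rose and -0.42 among those that fell, and 7 members changed by at least 1.5-fold, beside 1.7% of all intervals. With the replicate number as a block, 149 members passed (102 higher, 47 lower), beside 30.7% of all intervals (15.1% higher, 15.7% lower), and all 73 were among them. DESeq2 called 54, or 9.76% of the 553 members, beside 11.4% of all 19902 intervals. It gave an adjusted p to only 16815 of these intervals, of which it called 13.5%. Fewer members passed whichever 1 of the DMSO or degrader libraries was left out, and fewest without DMSO replicate 1 or Degrader replicate 2. The same held over all intervals. Both degrader libraries lay above both DMSO libraries for 197 of the 553 members and below both for 114, where 29.3% and 29.2% of all intervals did so. By arrangement, 25 of the 73 rose and 9 fell among the 289 shared start members. Among the 64 that run over the end of their sense gene 3 rose and 7 fell, and among the 84 without a listed sense gene 8 and 2. The numbers were 6 and 0 of 56 apart, and 4 and 0 of 18 over the sense start. They were 3 and 4 of 36 tested inside the sense gene, and 1 and 1 of 6 that contain it. The share called was 11.8% of the shared start members and 14.8% of the others, beside 15.3% of all intervals. Whether direction goes with arrangement was not tested.

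The 6 members with the largest increases lay at very different kinds of loci. DLGAP1-AS2 (ENSG00000262001, chr18:3602923-3604387, plus strand), an interval of 1465 bp, had 1.71 and 1.58 CPM in DMSO and 2.96 and 2.74 CPM in the degrader (log2 fold change 0.79, SE 0.21, adjusted p 0.0300). H1FX-AS1 (ENSG00000206417, chr3:129316350-129318311, plus strand), named for a linker histone gene, had 5.42 and 4.63 CPM in DMSO and 8.36 and 8.37 CPM in the degrader (log2 fold change 0.73, SE 0.14, adjusted p 0.00487). PAXIP1-AS2, which runs over the far end of PAXIP1, a gene of a DNA damage and histone methylation cofactor, had 6.26 and 8.20 CPM in DMSO and 11.5 and 11.8 CPM in the degrader (log2 fold change 0.69, SE 0.13, adjusted p 0.00583). In each of the 3, both degrader libraries lay above both DMSO libraries, which the ranking required. GNG12-AS1, which starts inside GNG12, a G protein gamma subunit gene, on the other strand, had 13.5 and 13.9 CPM in DMSO and 18.7 and 21.6 CPM in the degrader (log2 fold change 0.56, SE 0.11, adjusted p 0.00790). ACVR2B-AS1, antisense to the activin receptor gene ACVR2B, had 15.8 and 15.4 CPM in DMSO and 22.3 and 22.2 CPM in the degrader (log2 fold change 0.51, SE 0.095, adjusted p 0.00478). AQP4-AS1, named for a water channel gene, had 33.8 and 31.5 CPM in DMSO and 47.0 and 44.0 CPM in the degrader (log2 fold change 0.48, SE 0.075, adjusted p 0.00199). The arms did not overlap for these 3 either, by the same requirement. ACVR2B-AS1, AQP4-AS1 and H1FX-AS1 passed with any 1 library left out. For the other 3 the edgeR adjusted p was 0.0695 to 0.121 for DLGAP1-AS2, PAXIP1-AS2 and GNG12-AS1 without DMSO replicate 1; 0.117 for DLGAP1-AS2 without DMSO replicate 2; 0.118 for DLGAP1-AS2 without Degrader replicate 1; 0.104 for DLGAP1-AS2 and 0.0904 for GNG12-AS1 without Degrader replicate 2. DESeq2 gave DLGAP1-AS2 no adjusted p.

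The member that fell most in the same ranking was SLFNL1-AS1 (ENSG00000281207, chr1:41015418-41043890, plus strand), which contains the whole of SLFNL1 on the other strand. It had 106 and 102 CPM in DMSO, 67.8 and 68.3 CPM in GDC0068, and 61.0 and 55.9 CPM in the degrader. Both drug arms lay far below DMSO, with a log2 fold change of -0.83 (SE 0.056; adjusted p in edgeR 2.66e-05) in the degrader and -0.61 (SE 0.056; adjusted p in edgeR 0.000658) in GDC0068, and both calls held without any 1 library. IRX4-AS1, which starts inside the Iroquois homeobox gene IRX4, had 6.38 and 8.01 CPM in DMSO and 4.42 and 4.29 CPM in the degrader (log2 fold change -0.72, SE 0.19, adjusted p 0.0274). PRR7-AS1, whose start overlaps that of PRR7 by 40 bp, had 15.9 and 13.1 CPM in DMSO and 9.33 and 8.37 CPM in the degrader (log2 fold change -0.72, SE 0.13, adjusted p 0.00440). FAM222A-AS1, over the far end of FAM222A, had 6.63 and 7.28 CPM in DMSO and 4.35 and 4.46 CPM in the degrader (log2 fold change -0.66, SE 0.14, adjusted p 0.00891). These 3 were all lower in both degrader libraries than in both DMSO libraries, as the ranking required. PITRM1-AS1, inside the gene of a mitochondrial peptidase, had 8.56 and 9.04 CPM in DMSO and 6.02 and 6.04 CPM in the degrader (log2 fold change -0.54, SE 0.13, adjusted p 0.0165). MCM3AP-AS1 (chr21:46229231-46246292, plus strand), which overlaps the end of MCM3AP, a gene of mRNA export, had 52.4 and 51.7 CPM in DMSO and 38.2 and 36.6 CPM in the degrader (log2 fold change -0.48, SE 0.065, adjusted p 0.000954), and MCM3AP itself had 189 and 184 CPM in DMSO and 191 and 175 CPM in the degrader (edgeR adjusted p 0.779). MCM3AP-AS1 also held without any 1 library. The edgeR adjusted p of the other 4 was 0.0549 for PRR7-AS1 and 0.0701 for PITRM1-AS1 without DMSO replicate 1; 0.0537 to 0.148 for IRX4-AS1, FAM222A-AS1 and PITRM1-AS1 without DMSO replicate 2; 0.0500 to 0.0850 for IRX4-AS1, FAM222A-AS1 and PITRM1-AS1 without Degrader replicate 1; 0.0576 to 0.128 for IRX4-AS1, FAM222A-AS1 and PITRM1-AS1 without Degrader replicate 2.

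In all, 9 members kept their call in the degrader comparison with any 1 library left out, beside 3.47% of all intervals: ACVR2B-AS1, AQP4-AS1, H1FX-AS1, PGR-AS1, POC1B-AS1, SIAH2-AS1 and ZBED5-AS1, which rose, and MCM3AP-AS1 and SLFNL1-AS1, which fell. POC1B is a centriole gene and SIAH2 a ubiquitin ligase gene. SIAH2-AS1, which starts 1211 bp inside SIAH2, covers 111618 bp and had 125 and 108 CPM in DMSO, 155 and 143 CPM in GDC0068, and 168 and 154 CPM in the degrader. POC1B-AS1 covers 23137 bp and had 54.6 and 49.4 CPM in DMSO, 63.1 and 62.5 CPM in GDC0068, and 68.3 and 67.6 CPM in the degrader. Both drug arms lay above DMSO for each.

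**Figure D4:**
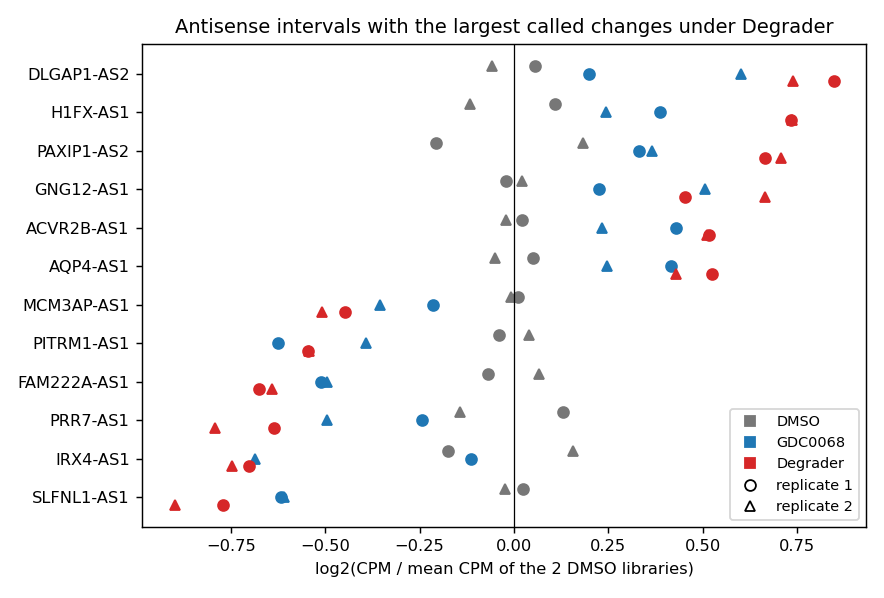
CPM relative to the mean of the 2 DMSO libraries on a log2 scale (x axis) for the members with the largest called changes in the degrader against DMSO (y axis); each point is 1 library, coloured by arm. The lowest is SLFNL1-AS1, with a log2 fold change of -0.83 in the degrader and -0.61 in GDC0068.

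GDC0068 against DMSO gave 14 called members, 11 higher and 3 lower. That is 2.53% of the 553 tested, beside 3.58% of all intervals (1.7% higher, 1.88% lower). The median log2 fold change was 0.27 among those that rose and -0.31 among those that fell, and 1 member, SLFNL1-AS1, changed by at least 1.5-fold, beside 0.337% of all intervals. With the replicate block, 98 members passed (83 higher, 15 lower), beside 17.8% of all intervals (8.87% higher, 8.91% lower), and all 14 were among them. In DESeq2 1.63% of the 553 passed, beside 3.06% of all 19902 intervals, of which 13342 had an adjusted p. The count was 9 in DESeq2 (beside 4.56% of the intervals it tested) and 7 with only the 4 libraries compared (beside 2.66% of all intervals). Fewer members passed whichever 1 of the 6 libraries was left out, and so did fewer of all intervals. Both GDC0068 libraries lay above both DMSO libraries for 217 members and below both for 66, where 26.1% and 24.0% of all intervals did so. SLFNL1-AS1 was the only member to pass with any 1 library left out, beside 0.131% of all intervals.

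The 6 largest increases called under GDC0068, ranked in the same way, were those of ZBED5-AS1, SIAH2-AS1, AQP4-AS1, SGMS1-AS1, POC1B-AS1 and C8orf37-AS1. ZBED5-AS1 (ENSG00000247271, chr11:10858225-10879217, plus strand), divergent to ZBED5, a gene of transposon origin, had 56.4 and 58.0 CPM in DMSO, 74.4 and 73.6 CPM in GDC0068, and 70.4 and 72.9 CPM in the degrader. All 4 drug-treated libraries were above both DMSO libraries, with a log2 fold change of 0.37 (SE 0.052; adjusted p in edgeR 0.00702) in GDC0068 and 0.32 (SE 0.052; adjusted p in edgeR 0.00225) in the degrader. SIAH2-AS1 rose by 0.35 on the log2 scale in GDC0068 (SE 0.072, edgeR adjusted p 0.0283) and 0.46 in the degrader (SE 0.072, edgeR adjusted p 0.00203). AQP4-AS1 had 33.8 and 31.5 CPM in DMSO and 43.6 and 38.8 CPM in GDC0068 (log2 fold change 0.33, SE 0.075, adjusted p 0.0373). SGMS1-AS1, named for a sphingomyelin synthase gene, had 40.0 and 39.6 CPM in DMSO, 48.9 and 47.7 CPM in GDC0068, and 49.0 and 47.6 CPM in the degrader (log2 fold change 0.28, SE 0.058, adjusted p 0.0279 in GDC0068). In each case the arms did not overlap, as the ranking required. C8orf37-AS1 had 52.5 and 48.3 CPM in DMSO and 59.0 and 62.1 CPM in GDC0068 (log2 fold change 0.27, SE 0.060, adjusted p 0.0373), and POC1B-AS1, with the values given above, had a log2 fold change of 0.27 (SE 0.060; adjusted p in edgeR 0.0345). With only the 4 libraries compared, the edgeR adjusted p was 0.0540 for AQP4-AS1, 0.0603 for C8orf37-AS1 and 0.0567 for POC1B-AS1, and the adjusted p of C8orf37-AS1 in DESeq2 was 0.0512.

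The 3 members that fell under GDC0068 were SLFNL1-AS1, SP2-AS1 and MCM3AP-AS1. SP2-AS1, which overlaps the end of SP2, a gene of the Sp family of transcription factors, had 48.1 and 49.0 CPM in DMSO, 37.4 and 40.8 CPM in GDC0068, and 39.9 and 38.6 CPM in the degrader, with a log2 fold change of -0.31 (SE 0.064; adjusted p in edgeR 0.0276) in GDC0068 and -0.30 (SE 0.064; adjusted p in edgeR 0.00909) in the degrader. MCM3AP-AS1 had 52.4 and 51.7 CPM in DMSO and 44.9 and 40.7 CPM in GDC0068 (log2 fold change -0.29, SE 0.065, adjusted p 0.0370). For the named members of this comparison other than SLFNL1-AS1, the edgeR adjusted p was 0.0688 to 0.186 for ZBED5-AS1, AQP4-AS1, SGMS1-AS1, POC1B-AS1, C8orf37-AS1, SP2-AS1 and MCM3AP-AS1 without DMSO replicate 1; 0.127 to 0.201 for SIAH2-AS1, AQP4-AS1, SGMS1-AS1, POC1B-AS1, C8orf37-AS1, SP2-AS1 and MCM3AP-AS1 without DMSO replicate 2; 0.0706 to 0.171 for SIAH2-AS1, AQP4-AS1, SGMS1-AS1, POC1B-AS1, C8orf37-AS1 and SP2-AS1 without GDC0068 replicate 1; 0.0554 to 0.171 for SIAH2-AS1, AQP4-AS1, SGMS1-AS1, POC1B-AS1, C8orf37-AS1, SP2-AS1 and MCM3AP-AS1 without GDC0068 replicate 2; 0.0517 to 0.0576 for AQP4-AS1, POC1B-AS1 and C8orf37-AS1 without Degrader replicate 1; 0.0512 to 0.0583 for AQP4-AS1, POC1B-AS1 and C8orf37-AS1 without Degrader replicate 2.

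No member differed between the degrader and GDC0068 in edgeR's test, in which 53 of all intervals passed (0.266%); 63 members had an unadjusted p under 0.05, beside 14.1% of all intervals, and DESeq2 called 0, beside 0.828%. With the replicate block 40 members passed, 11 higher and 29 lower in the degrader, beside 10.4% of all intervals (5.03% higher, 5.35% lower). Without GDC0068 replicate 2 a member call appeared, and more of all intervals passed as well. The doses of the arms differ. The median log2 difference over the members, degrader minus GDC0068, was -0.029, against -0.0038 for all intervals, and -0.054 for the shared start members. Without GDC0068 replicate 1 these member medians were -0.0014 and -0.0076, and without GDC0068 replicate 2 they were -0.047 and -0.110. The 6110 intervals of other names at the members' middle levels had a median of -0.033 (-0.035 to -0.016 with 1 library left out). The clone-named intervals had -0.017 (-0.023 to -0.0033) and the LINC intervals 0.013 (-0.0060 to 0.025). A lower median in the degrader was thus not particular to the members. In this direct comparison the log2 difference was -0.22 (SE 0.057; adjusted p in edgeR 0.130) for SLFNL1-AS1, 0.42 (SE 0.13; adjusted p in edgeR 0.191) for H1FX-AS1 and -0.34 (SE 0.13; adjusted p in edgeR 0.281) for PRR7-AS1; the same test with the replicate block gave adjusted p 0.00208, 0.0310 and 0.0324. A p above the threshold does not show that the drugs acted alike on these intervals.

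To ask whether a member moved with or apart from its sense gene, the ratio of antisense to sense counts was tested in 469 pairs. The p was adjusted over 14535 pairs of opposite-strand intervals of the whole table. Outside the members, each interval was paired with the nearest start on the other strand, at any distance. The shares of all pairs given below may therefore cover a different mix of arrangements than the member pairs. The ratio changed in 38 member pairs in the degrader (24 higher, 14 lower), which is beside 10.1% of all pairs, and 21 of the 38 were pairs whose intervals overlap. In GDC0068 it changed in 9 (5 higher, 4 lower), beside 2.47% of all pairs, and between the drugs in 0, beside 0.0757% (62 pairs had an unadjusted p under 0.05, beside 13.0%, and limma called 0). With the replicate block the numbers were 92, 52 and 26, beside 21.3%, 11.5% and 6.74%. The degrader count fell whichever 1 of the DMSO or degrader libraries was left out, and the GDC0068 count whichever 1 of the 6 was. Between the drugs some pairs passed without GDC0068 replicate 2. The shares of all pairs in these fits are not given here.

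ARRDC3-AS1 (ENSG00000281357, chr5:91380406-91420715, plus strand), whose promoter window is printed above, begins inside ARRDC3, a gene of an arrestin-domain adaptor protein, and shares its first 2912 bp with it. ARRDC3-AS1 had 101 and 89.1 CPM in DMSO, 84.7 and 82.0 CPM in GDC0068, and 86.6 and 76.8 CPM in the degrader. ARRDC3 had 114 and 103 CPM in DMSO, 124 and 119 CPM in GDC0068, and 140.2 and 144 CPM in the degrader. The sense gene was highest and the antisense RNA lowest in the drug arms. In the degrader the sense gene rose (log2 fold change 0.38, SE 0.056, adjusted p 0.00136), while the antisense RNA had a log2 fold change of -0.22 (SE 0.071; adjusted p in edgeR 0.0590), with an adjusted p of 0.000183 with the replicate block. Their ratio fell in the degrader (ratio change -0.60 on the log2 scale, SE 0.074, adjusted p 0.000286) and in GDC0068 (ratio change -0.35 on the log2 scale, SE 0.074, adjusted p 0.0278) in edgeR. The first held without any 1 library, and the adjusted p of the second was 0.192 for ARRDC3-AS1 without DMSO replicate 1; 0.116 for ARRDC3-AS1 without DMSO replicate 2; 0.0888 for ARRDC3-AS1 without GDC0068 replicate 1; 0.0712 for ARRDC3-AS1 without GDC0068 replicate 2.

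SLFNL1-AS1 fell while SLFNL1, on the other strand, had 9.40 and 8.05 CPM in DMSO, 9.24 and 10.2 CPM in GDC0068, and 9.78 and 11.7 CPM in the degrader. The arms of SLFNL1 overlapped in GDC0068 and not in the degrader, where its log2 fold change in the degrader was 0.30 (SE 0.13; adjusted p in edgeR 0.152). The ratio fell in both drug arms (ratio change -1.13 on the log2 scale, SE 0.15, adjusted p 0.000471 in the degrader; -0.77, adjusted p 0.0188 in GDC0068, both in edgeR). SIAH2 had 176 and 159 CPM in DMSO, 178 and 175 CPM in GDC0068, and 177 and 167 CPM in the degrader, so its arms overlapped while SIAH2-AS1 rose (ratio change 0.42 on the log2 scale, SE 0.063, adjusted p 0.00104 in the degrader, edgeR). URB1, a ribosome biogenesis gene, had 156 and 141 CPM in DMSO, 118 and 107 CPM in GDC0068, and 115 and 93.1 CPM in the degrader. URB1 was lower in all 4 drug-treated libraries (log2 fold change -0.52, SE 0.088, adjusted p 0.00305 in the degrader), but URB1-AS1, whose start lies 204 bp upstream on the other strand, had 14.2 and 14.1 CPM in DMSO, 17.5 and 15.0 CPM in GDC0068, and 14.3 and 13.3 CPM in the degrader. The antisense to sense ratio at URB1 rose in the degrader (ratio change 0.49 on the log2 scale, SE 0.11, adjusted p 0.0109) and in GDC0068 (ratio change 0.60 on the log2 scale, SE 0.11, adjusted p 0.0126) in edgeR; the 2 windows printed above share 220 bases.

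At EPB41L4A, a band 4.1 family gene, the antisense RNA overlaps the far end of the gene and overlaps SNORA13 on its own strand, so that reads there may be split or shared. EPB41L4A-AS1 had 69.7 and 68.1 CPM in DMSO, 61.5 and 58.6 CPM in GDC0068, and 58.6 and 57.4 CPM in the degrader, and EPB41L4A had 152 and 142 CPM in DMSO, 164 and 155 CPM in GDC0068, and 168 and 156 CPM in the degrader. The drug-treated libraries were lower than DMSO for the antisense RNA and higher for the sense gene. The ratio fell in the degrader (ratio change -0.39 on the log2 scale, SE 0.069, adjusted p 0.00308) and in GDC0068 (ratio change -0.32 on the log2 scale, SE 0.069, adjusted p 0.0299) in edgeR. Of the ratio calls in GDC0068 named here, the edgeR adjusted p was 0.0839 to 0.153 for EPB41L4A-AS1, SLFNL1-AS1 and URB1-AS1 without DMSO replicate 1; 0.180 for EPB41L4A-AS1 and 0.130 for SLFNL1-AS1 without DMSO replicate 2; 0.0888 for EPB41L4A-AS1 and 0.0512 for URB1-AS1 without GDC0068 replicate 1; 0.0756 for EPB41L4A-AS1 and 0.0733 for SLFNL1-AS1 without GDC0068 replicate 2. In the degrader, the calls of ARRDC3-AS1, SLFNL1-AS1, SIAH2-AS1 and EPB41L4A-AS1 held without any 1 library, and that of URB1-AS1 had an edgeR adjusted p of 0.135 for URB1-AS1 without DMSO replicate 1; 0.137 for URB1-AS1 without Degrader replicate 2.

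Both sides of a pair changed in 22 pairs in the degrader. They moved in the same direction in 19 (9 higher, 10 lower), beside 1.92% of all pairs. Of the 19, 14 shared a start region, as did 61.5% of all member pairs. The 2 sides moved in opposite directions in 3, beside 0.812% of all pairs. The pairs outside the members may differ from the member pairs in arrangement, as said above. In GDC0068 no pair had both sides called, where 0.138% of all pairs had them called the same way and 0.0413% in opposite ways. With the replicate block there were 43 pairs in the same and 15 in opposite directions in the degrader, beside 6.67% and 3.26%, and 18 and 8 in GDC0068, beside 2.48% and 1.31%. Across the 289 pairs with a shared start, the log2 fold changes of the 2 sides had a Pearson correlation of 0.358 in the degrader and 0.256 in GDC0068, across the 64 pairs that overlap at the sense end 0.259 and 0.273, across the 56 pairs apart 0.207 and 0.044, across the 18 that overlap at the sense start 0.245 and 0.0996, across the 6 with the sense gene inside the antisense interval -0.406 and 0.059, and across the 36 tested pairs with the antisense interval inside the gene 0.0092 and 0.084; these are descriptions, since the sides share libraries and size factors.

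**Figure D5:**
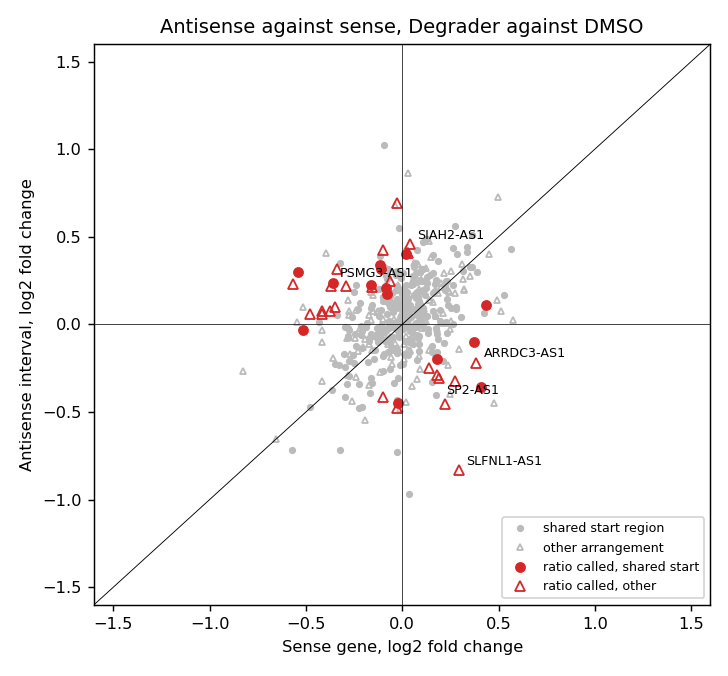
Log2 fold change of the sense gene (x axis) against that of its antisense member (y axis) in the degrader against DMSO; each point is 1 pair (circles for a shared start region, triangles for other arrangements), in red where the ratio passed the test. ARRDC3-AS1 (-0.22, with ARRDC3 at 0.38) and SLFNL1-AS1 (-0.83, with SLFNL1 at 0.30) lie in the lower right.

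One of the pairs that moved together was that of PGR, the progesterone receptor gene. PGR had 791 and 821 CPM in DMSO, 882 and 989 CPM in GDC0068, and 984 and 1050.4 CPM in the degrader, and PGR-AS1 (chr11:101128390-101198910, plus strand), whose start lies 680 bp inside PGR, had 42.8 and 39.4 CPM in DMSO, 51.3 and 48.5 CPM in GDC0068, and 58.7 and 50.8 CPM in the degrader. All drug-treated libraries were above DMSO on both strands. In the degrader the log2 fold changes were 0.34 (SE 0.069; adjusted p in edgeR 0.00801) for PGR and 0.41 (SE 0.076; adjusted p in edgeR 0.00481) for PGR-AS1. ACVR2B had 41.1 and 40.8 CPM in DMSO and 54.7 and 50.5 CPM in the degrader (log2 fold change 0.36, SE 0.066, adjusted p 0.00466), beside the rise of ACVR2B-AS1 given above. ZBED5 had 26.3 and 28.1 CPM in DMSO and 33.7 and 36.2 CPM in the degrader (log2 fold change 0.36, SE 0.075, adjusted p 0.00813), beside that of ZBED5-AS1. LMCD1, a gene of a LIM domain cofactor, had 145 and 156 CPM in DMSO, 151 and 161 CPM in GDC0068, and 189 and 205 CPM in the degrader, and LMCD1-AS1 had 54.9 and 58.8 CPM in DMSO, 60.1 and 63.8 CPM in GDC0068, and 66.9 and 72.9 CPM in the degrader. Both rose in the degrader, by 0.39 (SE 0.059; adjusted p in edgeR 0.00169) and 0.30 (SE 0.063; adjusted p in edgeR 0.00909) on the log2 scale. FAM222A fell with its antisense RNA, from 65.0 and 62.8 CPM in DMSO to 39.9 and 41.1 CPM in the degrader (log2 fold change -0.66, SE 0.056, adjusted p 0.000104). Of these 10 calls, 6 held without any 1 library, and the edgeR adjusted p of the others was 0.0971 to 0.105 for PGR, ZBED5 and LMCD1-AS1 without DMSO replicate 1; 0.0537 for FAM222A-AS1 without DMSO replicate 2; 0.0500 for FAM222A-AS1 without Degrader replicate 1; 0.0576 to 0.119 for PGR, ZBED5, LMCD1-AS1 and FAM222A-AS1 without Degrader replicate 2.

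The 3 pairs that moved in opposite directions were those of PSMG3, SP2 and JARID2. PSMG3, a proteasome assembly chaperone gene, had 37.0 and 37.8 CPM in DMSO, 38.5 and 32.5 CPM in GDC0068, and 27.6 and 30.7 CPM in the degrader, while PSMG3-AS1, which starts 110 bp upstream on the other strand and does not overlap it, had 85.8 and 83.4 CPM in DMSO, 98.7 and 98.9 CPM in GDC0068, and 98.3 and 101 CPM in the degrader. PSMG3 was lowest in the degrader and PSMG3-AS1 was higher in both drug arms than in DMSO. In the degrader the log2 fold changes were -0.36 (SE 0.088; adjusted p in edgeR 0.0192) and 0.24 (SE 0.049; adjusted p in edgeR 0.00798). SP2 had 111 and 111 CPM in DMSO, 123 and 129 CPM in GDC0068, and 125 and 129 CPM in the degrader, higher in every drug-treated library than in DMSO (log2 fold change 0.19, SE 0.049, adjusted p 0.0230 in the degrader), against the fall of SP2-AS1. JARID2, a cofactor gene of Polycomb complex PRC2, had 299 and 295 CPM in DMSO and 355 and 338 CPM in the degrader (log2 fold change 0.22, SE 0.052, adjusted p 0.0153), and JARID2-AS1, inside it, had 14.3 and 13.3 CPM in DMSO and 10.3 and 9.88 CPM in the degrader (log2 fold change -0.45, SE 0.13, adjusted p 0.0411). The ratio changed in the degrader in all 3 (0.60 at PSMG3, -0.50 at SP2 and -0.67 at JARID2 on the log2 scale, with edgeR adjusted p 0.00155, 0.00104 and 0.00552). The ratios at PSMG3 and SP2 held without any 1 library, and the edgeR adjusted p of that at JARID2 was 0.0638 for JARID2-AS1 without DMSO replicate 1; 0.0574 for JARID2-AS1 without Degrader replicate 2. For the single intervals the edgeR adjusted p was 0.0570 to 0.204 for PSMG3, SP2, SP2-AS1, JARID2 and JARID2-AS1 without DMSO replicate 1; 0.0509 to 0.0845 for PSMG3, PSMG3-AS1, SP2, SP2-AS1, JARID2 and JARID2-AS1 without DMSO replicate 2; 0.0672 to 0.134 for PSMG3, SP2, JARID2 and JARID2-AS1 without Degrader replicate 1; 0.0732 to 0.191 for PSMG3-AS1, SP2, SP2-AS1, JARID2 and JARID2-AS1 without Degrader replicate 2.

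Of 46 antisense RNAs listed because they have been described elsewhere, 33 were members. In the degrader 3 rose (ST8SIA6-AS1, FGD5-AS1 and TFAP2A-AS1) and 2 fell (MCM3AP-AS1 and LOXL1-AS1), and the median log2 fold change was 0.032; in GDC0068 only MCM3AP-AS1 changed and the median was 0.036. With the replicate block, 6 rose and 4 fell in the degrader, and 3 rose and 2 fell in GDC0068. Over all intervals 15.3% changed in the degrader and 3.58% in GDC0068, and 30.7% and 17.8% with the block, so these counts are near the background. ST8SIA6-AS1, the member with the highest CPM, had 214 and 223 CPM in DMSO, 219.6 and 239.9 CPM in GDC0068, and 247 and 265 CPM in the degrader (log2 fold change 0.23, SE 0.060, adjusted p 0.0267 in the degrader). TFAP2A-AS1, inside the gene of the luminal factor AP-2 alpha, had 71.1 and 66.0 CPM in DMSO, 79.0 and 80.4 CPM in GDC0068, and 80.3 and 81.3 CPM in the degrader (log2 fold change 0.24, SE 0.054, adjusted p 0.0136 in the degrader). The edgeR adjusted p of these was 0.200 for ST8SIA6-AS1 without DMSO replicate 1; 0.0641 for ST8SIA6-AS1 and 0.102 for TFAP2A-AS1 without DMSO replicate 2; 0.0572 for TFAP2A-AS1 without Degrader replicate 1; 0.249 for ST8SIA6-AS1 and 0.113 for TFAP2A-AS1 without Degrader replicate 2. CDKN2B-AS1 had 47.4 and 49.8 CPM in DMSO, 44.9 and 50.0 CPM in GDC0068, and 46.2 and 50.9 CPM in the degrader, with overlapping arms. PSMA3-AS1, OIP5-AS1, TMPO-AS1 and PXN-AS1, the other well transcribed RNAs of the list, had mean levels of 118, 69.9, 47.5 and 46.2 CPM, and their log2 fold changes in the degrader were 0.00072, 0.010, 0.18 and -0.15, none past the test; with the replicate block TMPO-AS1 and PXN-AS1 passed (adjusted p 0.00908 and 0.0289).

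Only 5 members had a sense gene in a list of 56 genes of growth factor, AKT, mTOR, FOXO, sterol and amino acid signalling, and none of the 5 passed in either drug arm, where 15.3% and 3.58% of all intervals did; with the replicate block 2 passed in the degrader and 1 in GDC0068, beside 30.7% and 17.8%. SREBF2-AS1, which starts inside the sterol regulator gene SREBF2, had 7.81 and 8.42 CPM in DMSO, 9.01 and 8.41 CPM in GDC0068, and 10.1 and 8.85 CPM in the degrader (log2 fold change 0.23, SE 0.12, adjusted p 0.240 in the degrader). KLF3-AS1, divergent to the repressor gene KLF3, had 15.4 and 16.2 CPM in DMSO, 19.4 and 19.3 CPM in GDC0068, and 18.2 and 19.4 CPM in the degrader. Its drug-treated libraries were all above DMSO, with edgeR adjusted p 0.0845 in the degrader and 0.0995 in GDC0068, and 0.0284 and 0.0187 with the replicate block. HIF1A-AS3 had 49.3 and 49.7 CPM in DMSO, 59.7 and 48.2 CPM in GDC0068, and 60.1 and 53.4 CPM in the degrader, with edgeR adjusted p 0.169 in the degrader and 0.00973 with the block. HIF1A-AS1 and SLC16A1-AS1 had log2 fold changes of 0.17 and -0.24 in the degrader, neither past the test with or without the block. HIF1A encodes the hypoxia factor and SLC16A1 a lactate transporter. Of the sense genes, KLF3 and SREBF2 themselves passed in the degrader in edgeR, KLF3 not in DESeq2. Neither call held in every fit with 1 library left out.

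Of 6 members at the HOX clusters, which hold homeobox genes of body patterning, HOXB-AS1 rose in the degrader and none changed in GDC0068, where HOXB-AS1 and HOXB-AS3 passed with the replicate block. Among 59 members whose sense gene has a symbol of a transcription factor family, 4 rose and 2 fell in the degrader and 0 changed in GDC0068; with the replicate block 8 rose and 4 fell in the degrader, and 10 rose and 0 fell in GDC0068. The shares over all intervals are 15.3% and 3.58%, and 30.7% and 17.8% with the block. The symbol rule also takes in PAXIP1 and MYCBP2, which are not factors of those families, and PAXIP1-AS2 and MYCBP2-AS1 are among those that rose. The median log2 fold change of the 59 was 0.086 in the degrader and 0.101 in GDC0068.

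RefSeq promoter windows were matched by symbol. Of the 554 members, 497 matched a RefSeq gene symbol, 391 had a window in the table and 356 of these had a RefSeq start within 1000 bp of the interval's start. The windows of the 356 were rich in G and C, with a median of 64.3% against 58.7% over all 35116 windows. The GC box GGGCGG was found in 59.8% of them (45.0% of all windows), the NRF1 motif in 10.7% (5.78%), the ETS motif CCGGAAG in 14.3% (10.3%) and the E-box CACGTG in 10.1% (7.26%). The TATA box TATAAA was found in 5.90% (11.5%), CCAAT in 31.2% (34.6%) and the forkhead motif GTAAACA, which FOXO factors downstream of AKT can bind, in 2.81% (3.42%). The palindromic estrogen response element was in none, and in 0.0570% of all windows. Both strands were searched, and matches of different motifs can overlap. Of the windows printed above, that of ARRDC3-AS1 holds a forkhead match, that of SIAH2-AS1 an E-box, and that of PSMG3-AS1 GC boxes and ETS matches. A match is a run of letters and does not show a bound site.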

How the data were processed

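The deposited table holds raw read counts per gene interval, made by the authors, with interval coordinates. Per the submitters' processing notes, cutadapt 1.14, Bowtie 1.2.2, HISAT2 2.2.1, SAMtools 1.3.1 and limma were used, with dm3, hg38 and GRCh38 as builds; their roles, the counting rule, its use of strand and the handling of duplicates are not given in the sources used here. Coordinates are those of the table, and promoter windows are from RefSeq GRCh38.p14.

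Counts were tested with edgeR 4.0.16 in R 4.3.3 (quasi-likelihood, TMM, filterByExpr at its defaults of 10 counts and 15 in total, 6 libraries in 1 model without a replicate term), with Benjamini-Hochberg adjustment over 19902 intervals and a threshold of 0.05. The common biological coefficient of variation was 5.51%. Antisense to sense ratios were tested in 1 edgeR model over both intervals of a pair, with library as a term and adjustment over 14535 pairs, in which each interval outside the members was set against the one with the nearest start on the other strand. Alternatives were DESeq2 1.42.0, limma 3.58.1 for ratios, plain library totals, no filter, the 4 libraries compared, a robust fit, a replicate block and leaving out each library. The models were tested on simulated data.

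The replicate numbers come from the labels, which do not say that a number marks a shared experiment. Deviations of same-numbered libraries from their arm's mean correlated at 0.177 between DMSO and GDC0068, 0.220 between DMSO and Degrader and 0.204 between GDC0068 and Degrader, so values with the replicate block are printed beside the others. Replicates differed by more than counting noise, with a chi-square per degree of freedom of 5.01 in DMSO, 6.95 in GDC0068 and 5.59 in Degrader.

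The members, lists and tests were chosen with earlier results of these data known. Named members are, in each comparison, the 6 highest and 6 lowest log2 fold changes among those called with at least 1 CPM and arms apart, the 5 highest levels per kilobase, up to 10 of the RNAs described elsewhere, those of the signalling list, and in each comparison up to 5 pairs by ratio, 5 called the same way and 5 in opposite ways. FGD5-AS1, LOXL1-AS1, HOXB-AS1, HOXB-AS3 and MYCBP2-AS1 are named as members of small counts, after their values were seen.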

Additional observations from a re-analysis of the deposited data

Results flagged for a closer look

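YTHDF3-AS1, a member whose level per kilobase is among the 5 highest, had libraries on opposite sides of DMSO in the drug arms. It had 30.3 and 27.3 CPM in DMSO, 36.4 and 31.0 CPM in GDC0068, and 25.5 and 27.1 CPM in the degrader, so both GDC0068 libraries lay above both DMSO libraries and both degrader libraries lay below. Neither difference from DMSO passed the test (log2 fold change 0.22, SE 0.093, edgeR adjusted p 0.204 in GDC0068, and 0.0370 with the replicate block; -0.13, SE 0.094, edgeR adjusted p 0.377 in the degrader). The direct log2 difference, degrader minus GDC0068, was -0.36 (SE 0.093), with an edgeR adjusted p of 0.130, which does not pass, and of 0.00294 with the replicate block. The 2 drug comparisons share the DMSO libraries.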

How the results depend on the processing

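None of the 57 calls on named intervals reversed; 47 held in every other model that gave them an adjusted p and 15 held without any 1 library. With the replicate number as a block, the members called were 149 in the degrader, 98 in GDC0068 and 40 between the drugs, and the pairs with a changed ratio were 92, 52 and 26. GDC0068 calls numbered 9 in DESeq2 and 7 with the 4 libraries compared, and GDC0068 ratio calls 5 with the 4 libraries. A fit on only the pairs whose intervals do not overlap gave 18 ratio calls in the degrader and 2 in GDC0068, from fewer pairs. With 1 library left out, member calls ranged from 16 to 75 in the degrader, 2 to 7 in GDC0068 and 0 to 1 between the drugs, and ratio calls from 8 to 52, 0 to 6 and 0 to 5. Why the counts moved was not tested. The member share of counts exceeded that of DMSO by 0.0489 percentage points in the degrader and 0.0599 in GDC0068. It also did so under 2 alternatives chosen after seeing the data. Without FP236383.3 the excess was 0.0398 in the degrader and 0.0648 in GDC0068. Without the 10 members with the most counts it was 0.0414 in the degrader and 0.0561 in GDC0068. With 2 libraries an arm and a median of 375 to 452.5 counts a member, changes of a few percent in one interval are not detectable.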
